A study of Mus musculus with 21 samples.

Results

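Male germ cells of newborn mice that lack Tex15 (KO) were set against wild-type germ cells (WT) of the same age, to ask which retrotransposons and genes are expressed differently once germ cells have passed through the fetal period without this protein. The comparison was taken as the 3 KO and the 3 WT libraries of one age, 6 of the 21 libraries of the series. The KO cells carry the genotype Tex15KO (Tex15-/- in the design text), the heterozygous cells (HT, 3 libraries) Tex15HT (Tex15+/-) and the WT cells Tex15WT. Animals of all 3 genotypes were male, 2.5 days old after birth (D2.5; the design text writes d2), of mixed strain background and bred from Tex15+/- parents of both sexes. Germ cells of every group were isolated by flow sorting on the green fluorescence of Oct4-GFP, a reporter of the germ cell and pluripotency factor Oct4, so the KO and control cells alike carry it. The labels do not say how the Tex15 allele was made, and whether a library pools several pups is not given in the sources used here. KO and HT libraries from embryonic day 18.5 (E18.5, 3 each), which share no library with the D2.5 comparison, were read beside it; WT cells were profiled at D2.5 only. Each group is described by its authors as biological triplicates, and p-values measure the spread between those libraries. For repeat names and families at D2.5 that spread was estimated in common over all rows, not for each repeat alone.

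TEX15 is a large nuclear protein of germ cells that binds MILI (gene Piwil2), a PIWI protein. In fetal male germ cells, PIWI proteins loaded with small RNAs (piRNAs) find the transcripts of active retrotransposons, and DNA methylation is then laid down on the matching copies before birth. The elements known for this control are young LINE-1 (L1) elements, which copy themselves without long terminal repeats, and intracisternal A particles (IAP), endogenous retroviruses of the ERVK class with long terminal repeats (LTRs). Around birth the germ cells, called prospermatogonia, leave their quiescent state and give rise to spermatogonia.

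The 9 D2.5 libraries held 6063632 to 7391401 gene counts each, and repeat names took 58.6% to 69.4% of the counts of the read count table. Levels are given as counts-per-million (CPM) of a library's gene counts, scaled by TMM factors, for repeats too, and 3 counts are worth 0.403 to 0.490 CPM. Between pairs of libraries the correlation of log2 CPM across genes, which are not independent replicates, was 0.866 to 0.908 within KO, 0.887 to 0.899 within WT and 0.854 to 0.898 between KO and WT. On the leading principal component KO replicate 3 lay far from the remaining 8 libraries. The 4 Y-linked genes Ddx3y, Uty, Eif2s3y and Kdm5d were detected in all 9 libraries. The germ cell identity gene Ddx4, the RNA helicase of germ cells, stood at 511 ± 46.4 CPM in KO and 622 ± 61.3 CPM in WT cells (SD, n = 3 each). The 16 genes of its list summed to 5475 to 7369 CPM in KO and 6425 to 7448 CPM in WT libraries. Single means ran from Dazl (3127 CPM in KO and 3512 CPM in WT cells) down to low levels. Pou5f1, the Oct4 gene, averaged 4.04 and 1.19 CPM, and Nanos3 and Rhox9 were too low to test. Markers of other testis cells were present at lower levels: the summed level of 24 Sertoli markers was 258 to 572 CPM in KO and 197 to 383 CPM in WT libraries, and that of 20 stromal and peritubular markers was 399 to 938 CPM in KO and 288 to 625 CPM in WT libraries. The summed level of 20 macrophage and blood markers was 64.4 to 104 CPM in KO and 58.9 to 84.1 CPM in WT libraries. Of these, 8 had no count in any of the 6 libraries, among them the adult globin genes Hba-a1 and Hbb-bs. Mrc1 of the same list averaged 38.7 CPM in KO and 26.7 CPM in WT cells. The 15 Leydig markers summed to 132 to 261 CPM in KO and 137 to 189 CPM in WT libraries, with no count for Insl3 and Hsd3b6. Single Leydig markers went both ways: of the 11 tested, 7 had a log2 fold change above 0 and 4 below, and none passed. Hsd3b1 averaged 10.05 CPM in KO and 0.876 CPM in WT cells, and Star 14.6 CPM in KO and 21.2 CPM in WT cells. In bulk RNA, more cells of a type and more RNA per cell cannot be told apart.

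Tex15 itself was checked before any other gene. Its transcripts stood at 20.3, 20.02 and 14 CPM in the 3 KO libraries, at 1498, 1835 and 1573 CPM in the HT libraries and at 3762, 3119 and 3648 CPM in the WT libraries. The 3 genotypes did not overlap, and every library fitted its label. The log2 fold change was -7.60 ± 0.19 (SE, adjusted p = 3.97e-18) for KO over WT and -1.10 ± 0.14 (SE, adjusted p = 0.00133) for HT over WT, by edgeR's quasi-likelihood test with Benjamini-Hochberg adjustment, the test behind every adjusted p given here. No other gene passed in HT over WT (1 of 14367, or 0.00696%). The unadjusted p was under 0.05 for 488 genes there, and the number of calls was 2 with DESeq2, 1 with limma-voom and 2 without WT replicate 1.

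Retrotransposons of a few kinds stood higher in newborn KO germ cells, and most other repeats did not pass the test. In the authors' family table, whose totals (299646966 to 1254023075 per library) lie so far above those of the read count table that a read must count at many places, 4 of 52 families passed, all of them higher in KO than in WT cells (7.69%). They were L1, ERVK, ERV1 (the class of murine leukaemia virus) and RNA, the annotation's class of repeats derived from cellular structural RNAs. ERVK stood at 3084440, 3683240 and 3583500 CPM on the scale of the family table in KO libraries, at 707340, 913911 and 826211 in HT libraries and at 815459, 774931 and 761705 in WT libraries. The lowest KO library lay far above every control library, in a table where 9.62% of families did not overlap in this direction, with a log2 fold change over WT of 2.14 ± 0.23 (SE, adjusted p = 3.14e-17). L1 stood at 187504000, 139855000 and 144900000 CPM on the scale of the family table in KO libraries, against 46440300, 62784100 and 39278400 in WT libraries, a log2 fold change of 1.67 ± 0.25 (SE, adjusted p = 9.36e-10). ERV1 had a log2 fold change of 1.43 ± 0.20 (SE, adjusted p = 2.11e-10) and RNA one of 0.74 ± 0.21 (SE, adjusted p = 0.00582), and both fell below 0 (-0.22 and -0.87) when the family totals, most of which are L1, were used as library sizes. In that setting ERVK and L1 kept values above 0 (0.52 and 0.07), while the median over all families moved to -1.69, against -0.10 with gene counts as library sizes, and 48 of the 50 families that then passed were lower in KO cells. No call was made for ERVL (0.01), MaLR (-0.09), Alu (-0.14), B2 (-0.16) or B4 (-0.14). The RNA family no longer passed without KO replicate 3 or without WT replicate 1, and the other 3 families passed without any 1 library.

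Single repeat names were counted as reads in the authors' other table, which is on another scale than the family table. Of 1110 names tested, 16 passed, all higher in KO cells (1.44%), while the median over all names was a log2 fold change of -0.11. In HT over WT no name passed, 16 names had an unadjusted p under 0.05, and limma-voom and DESeq2 called none either. Without KO replicate 3, 15 names passed, 12 of them from these 16, and without WT replicate 1, 10 names passed.

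The 6 names taken here as young L1 elements are mouse L1 subfamilies, among them those with copies still able to move. L1Md_A stood at 10953, 8076 and 8625 CPM in KO libraries, at 2388, 3163 and 3615 CPM in HT libraries and at 3013, 3261 and 2399.8 CPM in WT libraries. KO levels were above every control library, and HT and WT levels overlapped. The log2 fold change over WT was 1.67 ± 0.22 (SE, adjusted p = 1.62e-11). L1Md_Gf, a further young subfamily, stood at 619, 470.2 and 541 CPM in KO, against 240.3, 303 and 176 CPM in WT libraries, a log2 fold change of 1.18 ± 0.23 (SE, adjusted p = 6.68e-05). These were 2 of the 6 young L1 names, where 1.44% of all names passed. Summed over the 6, levels overlapped between KO (56792 to 76890 CPM) and WT libraries (45019 to 68607 CPM). The summed levels of 28 other rodent L1 names overlapped too, at 186634 to 291937 CPM in KO and 196992 to 249603 CPM in WT libraries. L1Md_F did not overlap between KO (4205, 4616 and 5337 CPM) and WT libraries (3147, 3329 and 2516 CPM) but did not pass (log2 fold change 0.65 ± 0.22 SE, adjusted p = 0.121), although DESeq2 called it. L1Md_T, also young, overlapped throughout, at 37826, 19149 and 29594 CPM in KO and 21461, 38321 and 21908 CPM in WT libraries, with a log2 fold change of 0.08 ± 0.22 (SE, adjusted p = 0.949). Of 28 other rodent L1 names and 76 ancient L1 names none passed by edgeR, limma-voom or DESeq2, with 2 names in each set at an unadjusted p under 0.05, and their median log2 fold changes were 0.14 and -0.21.

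Among IAP elements, 4 of 16 names passed, beside 1.44% of all names, and all 4 were higher in KO cells. They were the internal part IAPEz-int and the LTRs IAPLTR1_Mm, IAPLTR2a and IAPLTR2b. IAPEz-int stood at 1575, 1676 and 1577 CPM in KO libraries, at 439, 570.5 and 526 CPM in HT libraries and at 547, 489 and 479.9 CPM in WT libraries. The 3 KO libraries lay close together, and the 6 control libraries formed a second, overlapping set. The log2 fold change over WT was 1.67 ± 0.22 (SE, adjusted p = 1.62e-11). IAPLTR1_Mm, the LTR of a young IAP subtype, stood at 274, 295 and 269.9 CPM in KO and 63.6, 50.6 and 50.4 CPM in WT libraries. Its log2 fold change was 2.35 ± 0.28 (SE, adjusted p = 3.72e-14), and those of IAPLTR2a and IAPLTR2b were 1.75 ± 0.25 (SE, adjusted p = 1.45e-09) and 1.79 ± 0.28 (SE, adjusted p = 2.07e-08). IAPLTR2_Mm did not pass (0.75, adjusted p = 0.0743), although DESeq2 called it. The other 11 IAP names, such as IAP-d-int (0.14) and IAPEY3-int (0.22), had adjusted p-values of 0.944 or more.

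**Figure D1:**
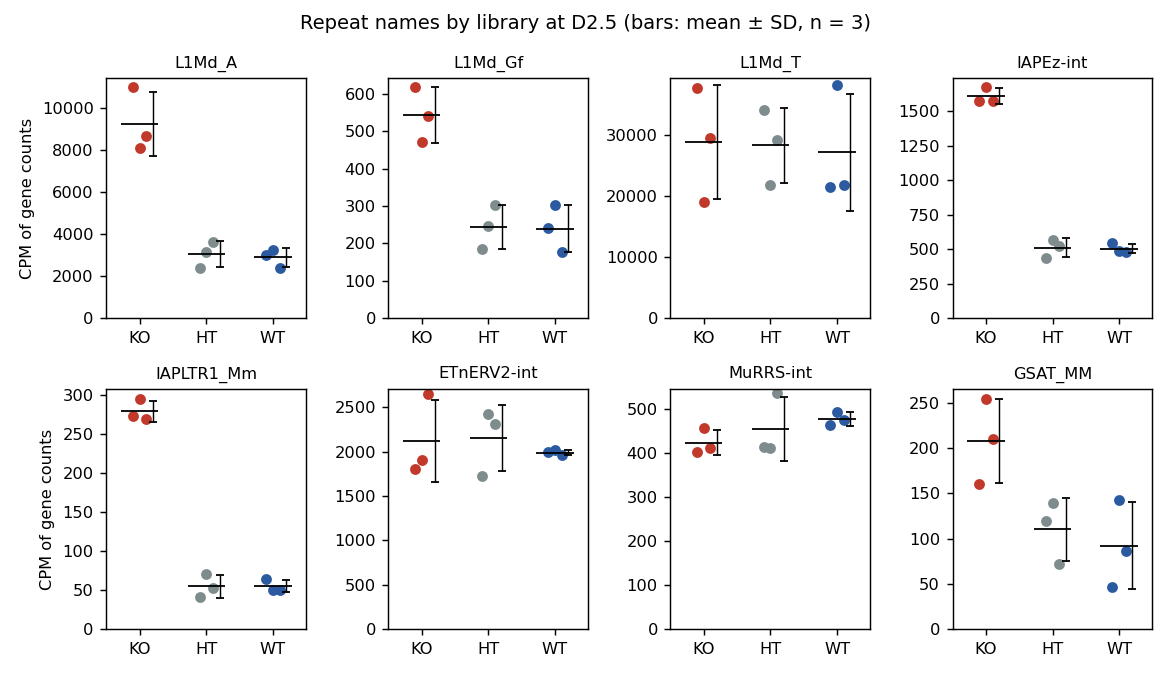
Level in each D2.5 library, as CPM of gene counts, of 8 repeat names in KO, HT and WT germ cells; points are libraries, and bars are the mean ± SD (n = 3). L1Md_A, L1Md_Gf, IAPEz-int, IAPLTR1_Mm and GSAT_MM in the 3 KO libraries lie above all WT libraries, whereas L1Md_T and ETnERV2-int overlap between genotypes and MuRRS-int lies slightly lower in KO, without passing the test.

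Other LTR elements passed singly. RLTR1B-int, the internal part of an endogenous retrovirus, stood at 1272, 811 and 992 CPM in KO and 464, 408 and 413 CPM in WT libraries (log2 fold change 1.26 ± 0.22 SE, adjusted p = 2.36e-06). MMERGLN-int, of the ERV1 class, stood at 1639, 1345 and 1627 CPM in KO and 788, 694 and 748 CPM in WT libraries (log2 fold change 1.05 ± 0.22 SE, adjusted p = 0.000164). Both were non-overlapping in KO against WT libraries, as were 4.32% of all names in this direction. MER67D rose by 2.32 ± 0.31 (SE, adjusted p = 1.82e-11) on the log2 scale and RLTR10A by 0.94 ± 0.23 (SE, adjusted p = 0.00402). RLTR4_MM-int, of the murine leukaemia virus type, passed narrowly at 0.88 (adjusted p = 0.0496) and was lost in 7 of the 9 fits that left out 1 library and not called by limma-voom. LTR28 (6.5, 6.09 and 11.3 CPM in KO, 0, 0.324 and 1.01 CPM in WT libraries) and MLT1E3-int (1.08, 16.8 and 18.8 CPM in KO, 2.65, 1.46 and 0.72 CPM in WT libraries) are low, and MLT1E3-int overlapped between the genotypes because KO replicate 1 lay among the WT libraries. MMERVK10C-int, the internal part of an ERVK element, was non-overlapping at 2385, 1854 and 2129 CPM in KO against 1338, 1309.8 and 1283 CPM in WT libraries but did not pass (log2 fold change 0.70 ± 0.21 SE, adjusted p = 0.0684), although DESeq2 called it.

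ETn and MusD elements, ERVK elements known for new insertions in mice, did not pass at this age by edgeR, limma-voom or DESeq2: all 5 names had log2 fold changes of 0.02 to 0.13, and 0 had an unadjusted p under 0.05. ETnERV2-int, for example, stood at 1806, 1907 and 2656 CPM in KO and 1992, 2018 and 1960.4 CPM in WT libraries. MERVL elements, which are switched on in early embryos, passed in 0 of 3 names (median -0.05) and rodent SINEs in 0 of 25 (median -0.20) by any of these tools, with 0 names at an unadjusted p under 0.05. MaLR elements passed in 1 of 99 names (median -0.11), beside 1.44% of all names. That name was MLT1E3-int, which neither limma-voom nor DESeq2 called and which was lost in 4 of the 9 fits that left out 1 library.

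The last 3 names to pass were no retrotransposons. GSAT_MM, the major satellite at mouse centromeres, stood at 160.3, 254 and 209.8 CPM in KO, at 119.7, 139 and 71.5 CPM in HT and at 46.8, 143 and 86.4 CPM in WT libraries. KO libraries lay above all control libraries, although WT replicate 2 came close to KO replicate 1, and the log2 fold change over WT was 1.18 ± 0.27 (SE, adjusted p = 0.00104). Without KO replicate 2 or WT replicate 1 it no longer passed, and DESeq2 did not call it. 7SK, copies of a small nuclear RNA that holds back transcription elongation, stood at 392.3, 573 and 754 CPM in KO and 346, 329 and 277 CPM in WT libraries (log2 fold change 0.85 ± 0.23 SE, adjusted p = 0.015) and was lost in 5 of the 9 fits that left out 1 library. tRNA-Tyr-TAT was present at 2.79, 2.56 and 2.29 CPM in KO libraries and had no count in HT or WT libraries, so that its KO level was at least 5.51-fold higher than 3 counts per WT library. It met the count filter through the KO libraries alone, so it could be tested only because its KO level was high. It did not pass whichever WT replicate was left out and was too low to test whichever KO replicate was left out, and DESeq2 did not call it.

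The same elements were then followed in the E18.5 libraries, where KO stands against HT. Of the 16 names, 15 were tested at E18.5, 11 were higher in KO (9.87% of all names were) and 1, GSAT_MM, was lower (0.178% were). That is 68.8% of the D2.5 list and 9.91% of the 111 names higher at E18.5. L1Md_A had log2 fold changes of 1.67 at D2.5 and 1.65 at E18.5, and IAPEz-int of 1.67 and 1.47. In a joint fit of both ages, the D2.5 effect (KO over WT) minus the E18.5 effect (KO over HT) differed from 0 for 18 of 1145 names, of which 15 had the lower effect at D2.5. None of the 6 young L1 names was among them, with differences of -0.75 to 0.06 and adjusted p-values of 0.231 or more. All 6 had passed at E18.5 (median log2 fold change 1.22) and 2 at D2.5 (median 0.51). The median difference over all names was -0.28. The 18 names did not include IAPEz-int (difference 0.23, adjusted p = 0.702) or IAPLTR1_Mm (0.45, adjusted p = 0.694) either.

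In 4 LTR groups a lower effect at D2.5 was found for 13 names, none of which had passed at D2.5. All 5 ETn and MusD names had passed at E18.5 as higher in KO, as 9.87% of all names had, with log2 fold changes of 0.69 to 1.54. For ETnERV-int the difference between the ages was -1.49 (adjusted p = 0.000208) and for MMETn-int -1.32 (adjusted p = 0.000376). MuRRS-int, of the murine leukaemia virus type, had a log2 fold change of -0.17 at D2.5, at 403, 457 and 410.3 CPM in KO and 463, 494 and 474 CPM in WT libraries, not overlapping as in 4.77% of names in this direction, and of 1.78 at E18.5, a difference of -1.92 (adjusted p = 1.88e-08). By group, the effect was lower at D2.5 for 5 of 11 names of the murine leukaemia virus and VL30 type, 3 of 9 of MMERVK10C and RLTR10, 3 of 16 of IAP and 2 of 5 of ETn and MusD. Over all names it was lower for 15 of 1145. GSAT_MM differed the other way, by 3.93 (adjusted p = 4.75e-23), with 2908, 3653 and 1795 CPM in KO and 17907, 18854 and 18494 CPM in HT libraries at E18.5. That p rests largely on a spread shared between names. At embryonic day 16.5 GSAT_MM varied widely within each group, at 14.2, 15.4 and 418 CPM in KO and 3.85, 23.8 and 2587 CPM in HT libraries. The control differs between the ages (WT at D2.5, HT at E18.5), and at D2.5 no repeat name passed in HT over WT.

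**Figure D2:**
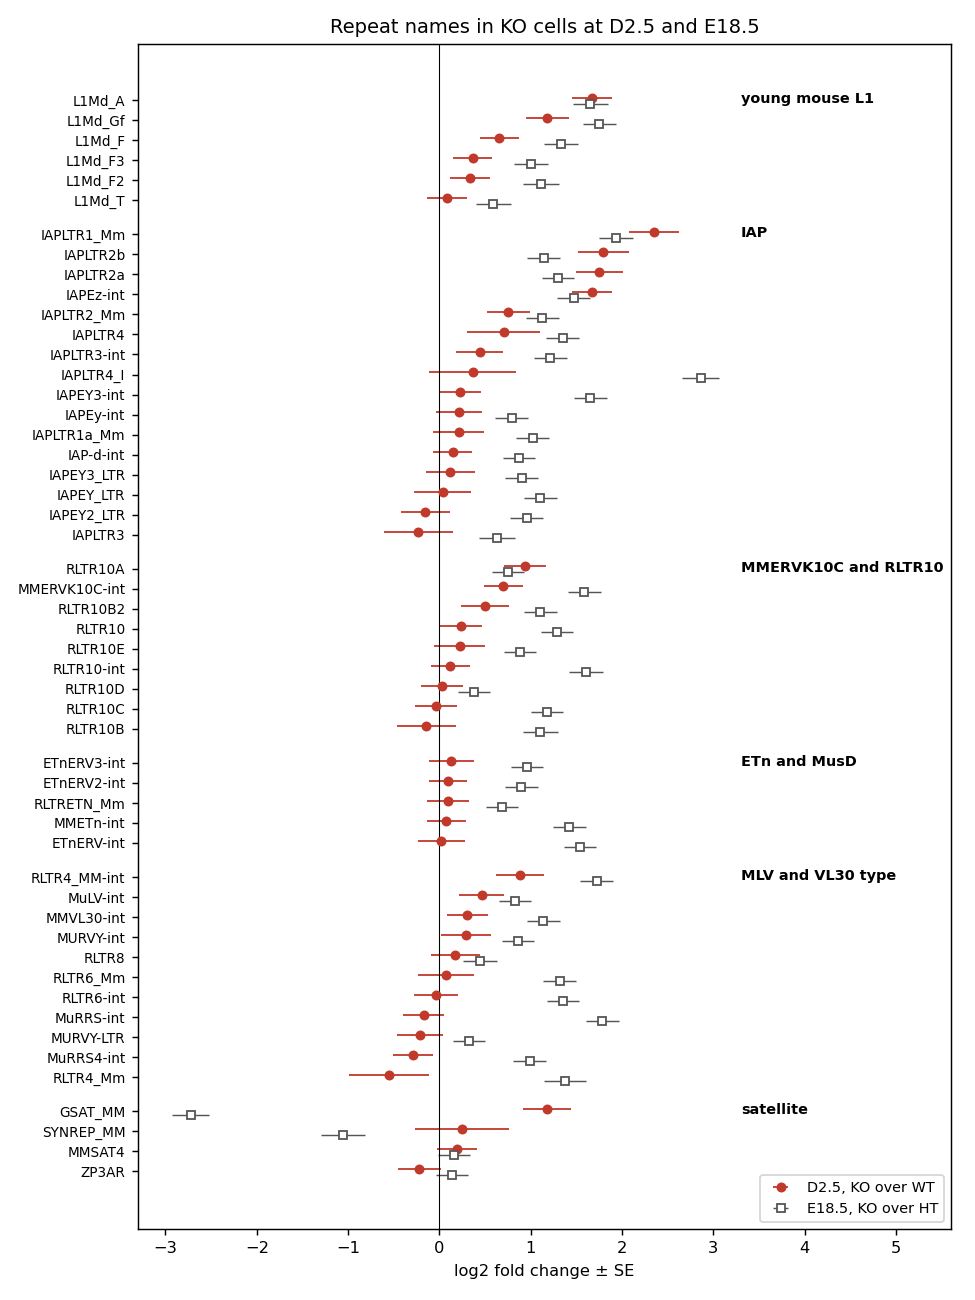
Log2 fold change ± SE of repeat names by group, KO over WT at D2.5 (filled red circles) and KO over HT at E18.5 (open squares); SE comes from a spread shared between names. L1Md_A, IAPEz-int and IAPLTR1_Mm have similar values at both ages, the 5 ETn and MusD names lie at 0.02 to 0.13 at D2.5 and at 0.69 to 1.54 at E18.5, and GSAT_MM lies on opposite sides of 0.

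Among protein-coding and noncoding genes the difference was narrow. Of 14367 genes tested, 31 passed (0.216%), 28 of them higher in KO cells (0.195%) and 3 lower (0.0209%); 1116 genes had an unadjusted p under 0.05. All 28 higher genes stood above every WT library in each KO library, as 6.43% of all tested genes did, and above every HT library too. These genes were chosen on the same KO and WT libraries, so the separation is largely built in and adds no support. Their median level was 7.57 CPM in WT cells, against 14.4 CPM over all tested genes, and 12 of them had a WT mean under 5 CPM. Without KO replicate 3, 30 genes passed, 23 of them from these 31, and without WT replicate 3, 19 passed. DESeq2 called 123 genes, 88 of them higher in KO cells. Beside Tex15, up to 10 genes of the largest log2 fold changes in each direction were named by rule, and the remaining ones were named after their values were seen.

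**Figure D3:**
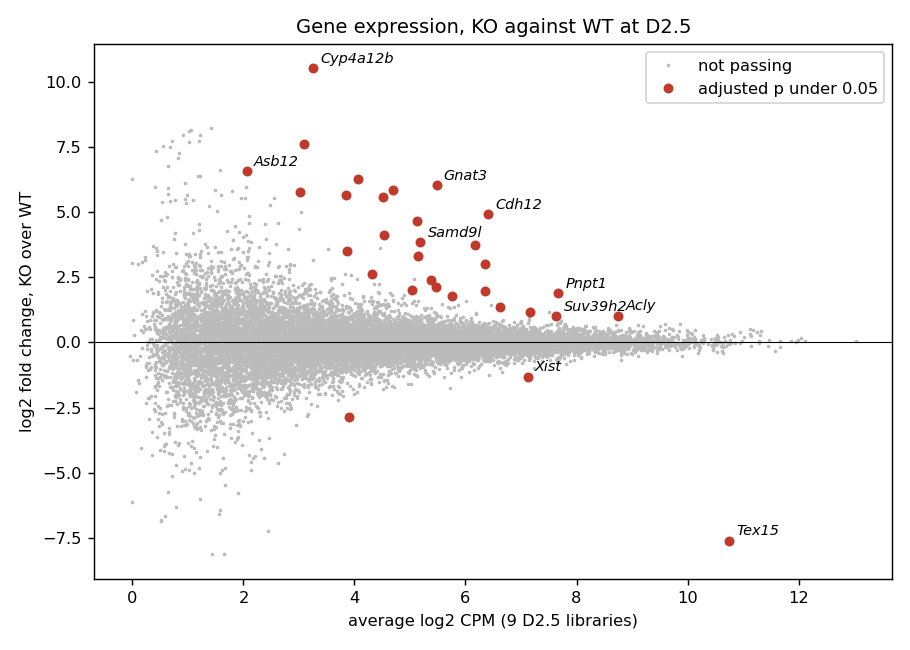
Log2 fold change of KO over WT at D2.5 (vertical axis) against the average log2 CPM of the 9 D2.5 libraries (horizontal axis) for 14367 genes; red points passed at an adjusted p under 0.05. Tex15 is the lowest point to pass and 28 genes pass above 0; the fitted value of Cyp4a12b, which had no count in WT libraries, depends on the prior count and is no bound.

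Promoters of 4 of the 28 genes are shown because DNA methylation acts on CG dinucleotides, and these 4, chosen after their values were seen, run from CG-poor to CG-rich. Each sequence is 300 bases, from 250 before to 50 after the RefSeq start of the gene on the GRCm38.p6 build, with every CG in capitals; CG reads the same on both strands.
Samd9l, chr6:3399522-3399821, minus strand: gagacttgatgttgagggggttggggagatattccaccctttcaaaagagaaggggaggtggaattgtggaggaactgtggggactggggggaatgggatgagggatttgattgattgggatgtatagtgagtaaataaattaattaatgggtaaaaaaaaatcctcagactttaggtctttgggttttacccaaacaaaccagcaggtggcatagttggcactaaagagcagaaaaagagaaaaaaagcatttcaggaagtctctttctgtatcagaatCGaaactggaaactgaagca
Gnat3, chr5:17962320-17962619, plus strand: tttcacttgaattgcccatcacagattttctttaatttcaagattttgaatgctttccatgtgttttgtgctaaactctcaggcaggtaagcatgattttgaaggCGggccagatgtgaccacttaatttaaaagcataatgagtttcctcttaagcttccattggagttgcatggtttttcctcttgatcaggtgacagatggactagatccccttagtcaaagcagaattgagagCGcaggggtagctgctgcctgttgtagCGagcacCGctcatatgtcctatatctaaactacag
Pnpt1, chr11:29130494-29130793, plus strand: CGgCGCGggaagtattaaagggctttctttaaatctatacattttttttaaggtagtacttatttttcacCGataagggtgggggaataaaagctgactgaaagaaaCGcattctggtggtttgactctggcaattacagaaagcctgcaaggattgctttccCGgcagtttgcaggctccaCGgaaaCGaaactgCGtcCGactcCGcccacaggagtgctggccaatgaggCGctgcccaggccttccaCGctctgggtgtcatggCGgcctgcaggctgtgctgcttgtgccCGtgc
Suv39h2, chr2:3474937-3475236, minus strand: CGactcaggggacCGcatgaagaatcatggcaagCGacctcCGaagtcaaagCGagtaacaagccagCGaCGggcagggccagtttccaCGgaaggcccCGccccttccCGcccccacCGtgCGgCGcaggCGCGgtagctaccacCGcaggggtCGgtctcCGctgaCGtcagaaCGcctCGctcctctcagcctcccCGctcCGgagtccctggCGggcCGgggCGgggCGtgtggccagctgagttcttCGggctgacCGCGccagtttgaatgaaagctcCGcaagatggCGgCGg
The Samd9l window holds 1 CG, and 14.1% of 32851 RefSeq promoters hold as many or fewer. Gnat3 holds 4 (38.0%), Pnpt1 15 (67.0%) and Suv39h2 33 (92.3%), where the median promoter holds 7 and 94.6% hold at least 1. A promoter was matched for 21 of the 28 higher genes (75%), below the 80% needed for a statement on all of them, so none is made. Methylation was not measured in these samples.

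The 28 higher genes are described by their known roles, a sorting made after their values were seen and not tested. Of those with a role in host defence or cell death, Samd9l, an interferon-inducible antiviral protein that blocks translation, stood at 125, 96.1 and 80.7 CPM in KO, at 0.308, 1.34 and 0.757 CPM in HT and at 3.12, 5.35 and 12.5 CPM in WT libraries. All KO libraries were far above the controls, and all HT libraries were below all WT libraries. The log2 fold change was 3.83 ± 0.49 (SE, adjusted p = 0.000114) over WT and 6.91 over HT. Ripk3, the kinase that starts necroptosis, stood at 23.8, 38.1 and 31.5 CPM in KO and 2.81, 2.43 and 3.02 CPM in WT libraries, with HT libraries between them at 11.6, 7.52 and 6.97 CPM; its log2 fold change over WT was 3.49 ± 0.56 (SE, adjusted p = 0.00262). Its substrate Mlkl did not pass (0.85, adjusted p = 0.959). C6, a component of the membrane attack complex of complement, stood at 33.6, 57.5 and 53.2 CPM in KO and 1.25, 0.162 and 0.432 CPM in WT libraries (log2 fold change 6.25 ± 0.75 SE, adjusted p = 4.23e-05).

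Samd9l was the only one of 17 tested interferon-stimulated genes to pass, and the median of that list was -0.19, beside 0.01 over all genes. Of 18 tested sensors of foreign nucleic acid none passed by edgeR or limma-voom. Their median was -0.07, but single log2 fold changes ran from -1.55 to 6.61, with a lowest adjusted p of 0.247. An unadjusted p under 0.05 was found for 2, and DESeq2 called 1, Tlr7.

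Of the enzymes of chromatin, RNA and acetyl-CoA, Suv39h2, which methylates lysine 9 of histone H3 (H3K9), stood at 285, 279 and 319.9 CPM in KO and 124, 148 and 167 CPM in WT libraries, a log2 fold change of 1.01 ± 0.19 (SE, adjusted p = 0.0174). It was the only one of 22 tested genes of H3K9 and KRAB repression to pass; its paralogue Suv39h1 was also non-overlapping but did not pass (log2 fold change 1.11 ± 0.46 SE, adjusted p = 0.546). Pnpt1, the polynucleotide phosphorylase that degrades RNA in mitochondria, stood at 322, 353 and 447 CPM in KO and 106, 78.3 and 119.7 CPM in WT libraries (log2 fold change 1.88 ± 0.21 SE, adjusted p = 2.57e-05). Acly, the ATP-citrate lyase that makes cytosolic acetyl-CoA, stood at 726, 706 and 499 CPM in KO and 273, 358 and 317 CPM in WT libraries (log2 fold change 1.03 ± 0.18 SE, adjusted p = 0.00882), and Kat2b, a histone acetyltransferase that uses acetyl-CoA, at 123, 169.6 and 138 CPM in KO and 70.4, 66.9 and 31.3 CPM in WT libraries (log2 fold change 1.35 ± 0.29 SE, adjusted p = 0.0437). Of these, Pnpt1 passed without any 1 library. Suv39h2 and Acly were lost in 4 of the 9 fits that left out 1 library and Kat2b in 8.

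Of the genes known from sensory and nerve cells, Gnat3, gustducin, the G protein alpha subunit of taste cells, stood at 80.6, 106 and 189 CPM in KO, at 1.69, 2.01 and 14.4 CPM in HT and at 3.12, 1.62 and 1.01 CPM in WT libraries. KO libraries lay above all controls, with HT replicate 3 the highest of these, and the log2 fold change over WT was 6.02 ± 0.69 (SE, adjusted p = 2.57e-05). Gpr179, an orphan receptor of retinal bipolar cells, stood at 39.6, 84.4 and 73.8 CPM in KO and 1.87, 0.648 and 1.58 CPM in WT libraries (log2 fold change 5.56 ± 0.61 SE, adjusted p = 2.38e-05). Npbwr1, a receptor for neuropeptides B and W, stood at 10.1, 36.2 and 24.8 CPM in KO and 0.312, 0 and 0 CPM in WT libraries. With 2 counts in the WT libraries in all, the ratio of its CPM was 229.6 (exact 95% interval 63.2 to 1902, counting error only), and it was lost without KO replicate 2, WT replicate 2 or WT replicate 3 and not called by limma-voom. The G protein subunits of photoreceptors, Gnat1 (-0.95) and Gnat2 (0.02), did not pass. Of 32 olfactory receptor genes (Olfr) and 16 vomeronasal receptor genes (Vmn) tested, none passed by edgeR or limma-voom, 7 and 1 had an unadjusted p under 0.05, and DESeq2 called 1, Vmn2r78.

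Of the genes for adhesion proteins, Cdh12, a cadherin of neurons, stood at 261, 228 and 208 CPM in KO, at 7.85, 21.2 and 10.8 CPM in HT and at 8.59, 10.05 and 4.61 CPM in WT libraries, with a log2 fold change over WT of 4.91 ± 0.38 (SE, adjusted p = 5.82e-08). Cdh19, a cadherin of the Schwann cell lineage, stood at 67, 77.2 and 82 CPM in KO and 0.625, 3.24 and 0.144 CPM in WT libraries (log2 fold change 5.82 ± 0.67 SE, adjusted p = 2.57e-05). Both lay far above every control library, and they were the 2 of 20 tested Cdh genes to pass, where 0.195% of all genes were higher. Dsg1b, a desmoglein of skin desmosomes, Pcdh7, a protocadherin, and Marveld2, tricellulin of tight junctions, had log2 fold changes of 5.78 ± 1.14 (SE, adjusted p = 0.0224), 2.61 ± 0.51 (SE, adjusted p = 0.0196) and 1.18 ± 0.25 (SE, adjusted p = 0.0437), and they were lost in 3, 5 and 5 of the 9 fits that left out 1 library; limma-voom did not call Dsg1b. The paralogues Dsg1a and Dsg1c averaged 0.417 and 0.0544 CPM in KO cells and were too low to test.

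Transporters and channels were 7 of the 28 genes. Slc40a1, ferroportin, the exporter of cellular iron, stood at 147, 179.5 and 228 CPM in KO, at 25.7, 14.4 and 7.12 CPM in HT and at 18.1, 16.7 and 6.34 CPM in WT libraries (log2 fold change 3.75 ± 0.43 SE, adjusted p = 2.57e-05). Slco1a5, an organic anion transporter, stood at 101, 87.3 and 93.1 CPM in KO and 6.09, 3.4 and 1.73 CPM in WT libraries (log2 fold change 4.64 ± 0.59 SE, adjusted p = 9.30e-05). Slc15a2, a transporter of small peptides, stood at 44.4, 39.6 and 37.1 CPM in KO and 2.03, 0.162 and 0.144 CPM in WT libraries (log2 fold change 5.67 ± 0.98 SE, adjusted p = 0.00582). For all 3 genes the lowest KO library lay far above every WT library; Slc15a2 no longer passed without WT replicate 2 or WT replicate 3. Atp13a5, a P-type ATPase, had HT levels (18.3, 50.8 and 77.4 CPM) that reached above the WT levels (17.2, 26.4 and 21.6 CPM), with 123, 190.4 and 207 CPM in KO libraries and a log2 fold change over WT of 2.997 ± 0.39 (SE, adjusted p = 0.000124). Scn2a, a neuronal sodium channel, had a log2 fold change of 4.11 ± 0.62 (SE, adjusted p = 0.000959), Ano4, of the anoctamin family, 2.03 ± 0.39 (SE, adjusted p = 0.0183), and Slc24a2, a sodium, calcium and potassium exchanger, 1.77 ± 0.35 (SE, adjusted p = 0.024). Ano4 was lost in 4 and Slc24a2 in 5 of the 9 fits that left out 1 library. Of 277 tested genes with a symbol of the solute carrier series, only Slc40a1, Slco1a5, Slc15a2 and Slc24a2 passed, beside the 0.195% of all genes that were higher.

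The other higher genes were of mixed function. Cyp4a12b, a cytochrome P450 that hydroxylates fatty acids, stood at 39.9, 29.1 and 14.2 CPM in KO and 0.154, 0.134 and 0 CPM in HT libraries and had no count in WT libraries, so that the KO level was at least 60.1-fold higher than 3 counts per WT library. Cyp4a12b too met the count filter through the KO libraries alone. Its near-identical neighbour Cyp4a12a had no count in any of the 9 libraries, and how reads that fit both were assigned is not given in the sources used here. Asb12, a subunit that brings substrates to ubiquitin ligases, stood at 12.4, 8.49 and 13.7 CPM in KO libraries and had 2 counts in all in WT libraries, a ratio of 112 (exact 95% interval 30.8 to 935). Asb12 was lost whichever of the 6 KO and WT libraries was left out, and limma-voom did not call it. Spag16, a protein of the sperm flagellum, stood at 86, 72.5 and 103 CPM in KO and 10.9, 11.3 and 4.18 CPM in WT libraries (log2 fold change 3.31 ± 0.44 SE, adjusted p = 0.000174). Sfi1, a centrin-binding protein of centrosomes, had a log2 fold change of 2.13 ± 0.37 (SE, adjusted p = 0.00692), and the pseudogene 6820431F20Rik one of 1.96 ± 0.32 (SE, adjusted p = 0.00359). Sfi1 and 6820431F20Rik were each lost in 2 of the 9 fits that left out 1 library. Cdr1 stood at 87.7, 79.6 and 87.4 CPM in KO and 12.5, 19 and 16.9 CPM in WT libraries (log2 fold change 2.40 ± 0.34 SE, adjusted p = 0.000508); the locus also yields an antisense RNA, and whether counting used strand is not given.

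The genes that were lower beside Tex15 were Xist, the noncoding RNA of X inactivation, and 4933431G14Rik. Xist stood at 81.9, 70.9 and 69.2 CPM in KO, at 111, 196 and 173 CPM in HT and at 224, 167 and 158 CPM in WT libraries. KO libraries lay below all controls (6.26% of all tested genes were lower in KO without overlap with WT), with a log2 fold change over WT of -1.31 ± 0.24 (SE, adjusted p = 0.0111), which was lost without KO replicate 2, KO replicate 3 or WT replicate 1. 4933431G14Rik stood at 4.8, 4.004 and 1.31 CPM in KO and 28.1, 26.9 and 17.7 CPM in WT libraries (log2 fold change -2.84 ± 0.59 SE, adjusted p = 0.0392) and was lost whichever of the 6 KO and WT libraries was left out.

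**Figure D4:**
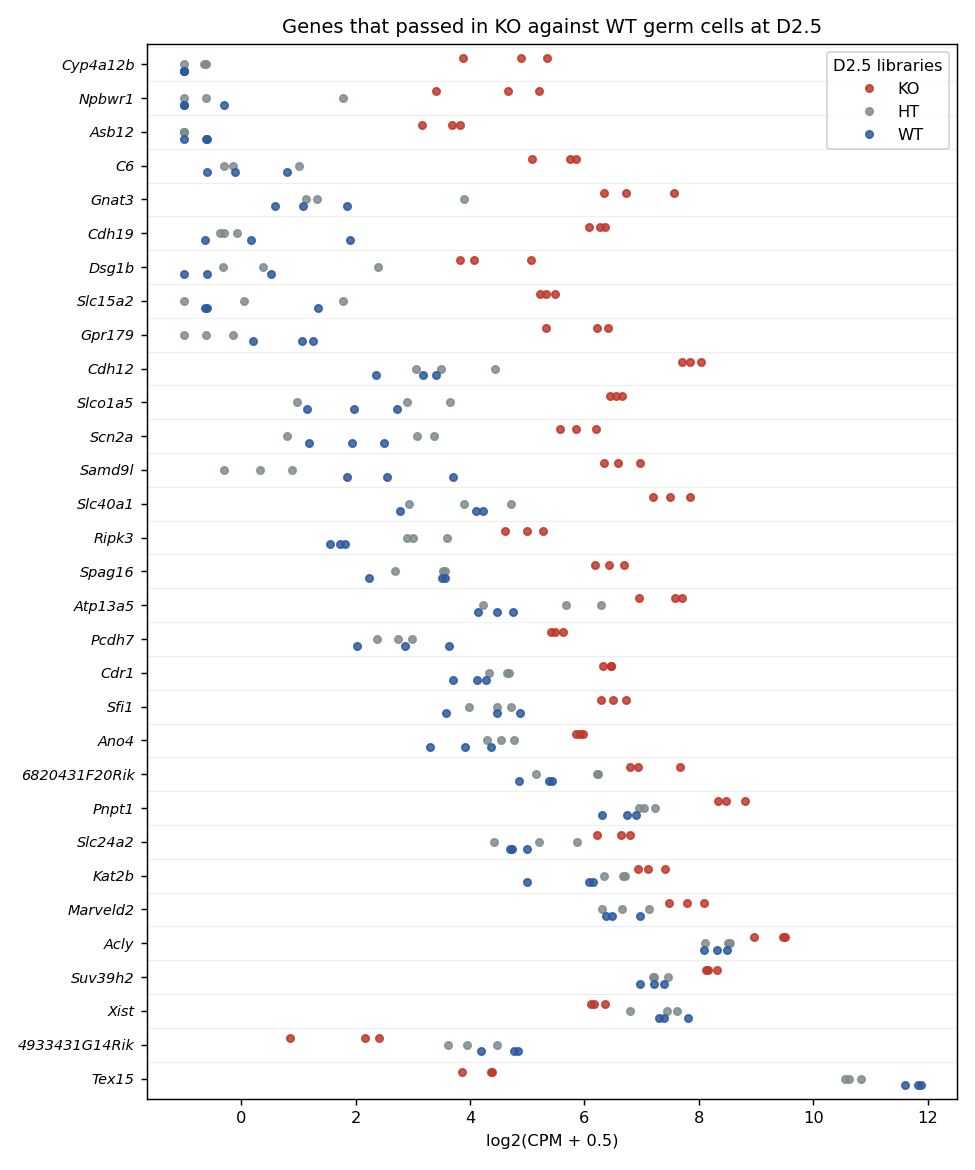
Level in each D2.5 library of the 31 genes that passed, as log2(CPM + 0.5), with KO libraries in red, HT in grey and WT in blue. For the 28 higher genes every KO point lies right of every WT and HT point; Xist, 4933431G14Rik and Tex15 at the bottom lie to the left in KO.

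HT cells, the heterozygotes, were set beside WT cells for the same genes. Of the 28 higher genes, none passed in HT over WT, 11 had an unadjusted p under 0.05 there, beside 3.40% of all tested genes, and the median HT over WT log2 fold change was 0.50, where 23 of the 28 were above 0. Ripk3 (1.65), Gnat3 (1.64) and Atp13a5 (1.17) were among those above 0 and Samd9l (-3.07, adjusted p = 0.123) among those below. These values share the WT libraries with the comparison that chose the genes. With HT in place of WT as the control, 22 genes passed (0.153%), 19 of the 28 among them. That comparison shares the KO libraries and the fit with the one that chose the genes, so it is no independent support.

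The 28 genes were then read in the E18.5 libraries. There 14 of them passed as higher in KO over HT (2.07% of all tested genes did), which is 50% of the D2.5 list and 3.71% of the 377 genes higher at E18.5. Their median log2 fold change at E18.5 was 0.94, beside a median of -0.00444 over all genes, and 27 of the 28 were above 0. Cyp4a12b (3.54), Cdh19 (3.25), Slc15a2 (2.73), Gpr179 (2.60), Gnat3 (2.02), Samd9l (1.12) and Pnpt1 (0.87) passed at both ages. Ripk3 stood at 24.3, 32.1 and 32.6 CPM in KO and 22.4, 32.5 and 31.1 CPM in HT libraries at E18.5, and Cdr1 at 19.9, 17.9 and 17.2 CPM in KO and 20.7, 21.6 and 21.6 CPM in HT libraries. In the joint fit of both ages 3 of 18208 genes differed, each with the larger effect at D2.5: Ripk3 by 3.47 (adjusted p = 0.0167), Cdh12 by 3.28 (adjusted p = 0.0155) and Cdr1 by 2.65 (adjusted p = 0.0121). For the same difference limma-voom called 8 genes, these 3 among them. Read the other way, of the 377 genes higher at E18.5, 182 were tested at D2.5, 59 of them were non-overlapping and higher in KO there (background 6.43%), and their median D2.5 log2 fold change was 0.48.

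**Figure D5:**
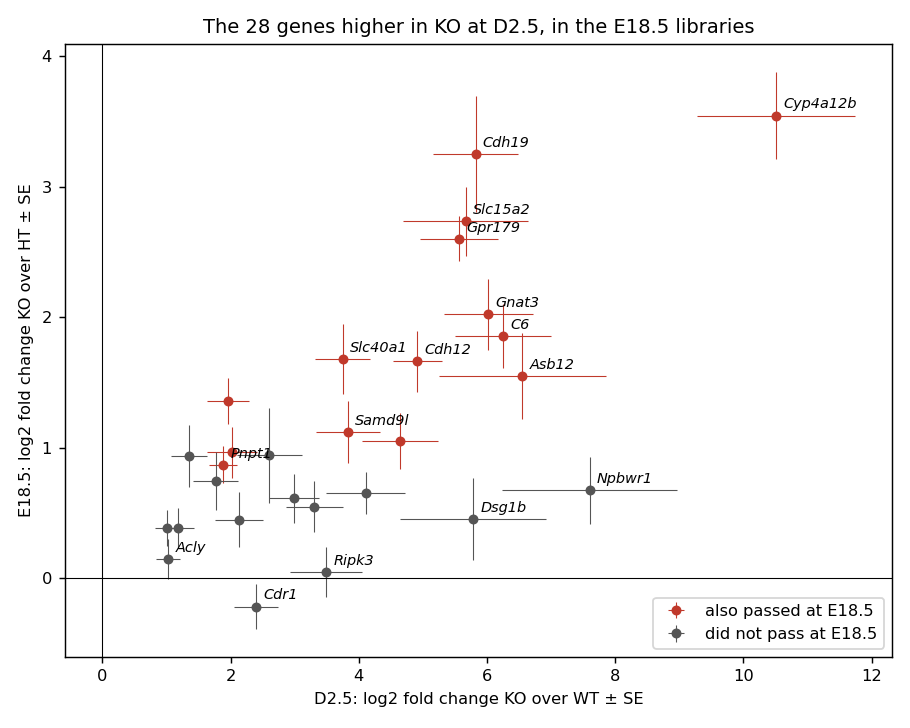
Log2 fold change ± SE of the 28 genes higher in KO at D2.5 (horizontal axis, KO over WT) and their value in the E18.5 libraries (vertical axis, KO over HT); red points passed at both ages. All but Cdr1 lie above 0 at E18.5, and 14 passed there; the horizontal value of Cyp4a12b rests on WT libraries with no count.

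Genes of the silencing pathway itself gave no calls beyond Suv39h2 and Tex15. None of 28 tested piRNA pathway genes passed by edgeR, limma-voom or DESeq2 (median -0.16, 20 of 28 below 0, 0 with an unadjusted p under 0.05). Piwil2, which encodes the TEX15 partner MILI, stood at 192 ± 46.3 CPM in KO and 214 ± 42.3 CPM in WT cells (SD, n = 3 each), Piwil4, the nuclear PIWI protein MIWI2, at 34 ± 15.6 and 54.4 ± 25.5 CPM, and Mael at 487 ± 127 and 508 ± 113 CPM. Of 17 tested genes of the DNA methylation machinery none passed by these tools either (median 0.23, 13 of 17 above 0, 1 with an unadjusted p under 0.05), among them the maintenance enzyme Dnmt1 (0.37), the de novo enzymes Dnmt3a (0.14) and Dnmt3b (0.09), and Dnmt3l, at 3.42 ± 2.8 CPM in KO and 2.29 ± 0.61 CPM in WT cells. Of 25 germline genes known to be held down by promoter methylation in other cells, only Tex15 passed. A p that misses the threshold does not show equal levels.

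Genes of germ cell stages gave no further calls. By edgeR, limma-voom and DESeq2 none passed among the tested genes for fetal germ cells and pluripotency (20, median 0.04), undifferentiated (21, median -0.14) and differentiating spermatogonia (12, median -0.06), meiotic prophase (30, median -0.11) or spermatids (13, median -0.33), and unadjusted p-values under 0.05 were found for 0, 2, 1, 2 and 1 of them. The same tools called none of the p53 target genes (20, median 0.23), imprinted genes (25, median 0.18), cell cycle genes (29, median 0.05) and the 3 tested genes linked to MERVL (median 0.23), of which 1, 3, 0 and 0 had an unadjusted p under 0.05. Of 21 tested stress genes none passed by edgeR or limma-voom, 17 were above 0 (median 0.51), 4 had an unadjusted p under 0.05, and DESeq2 called 1, Fosb.

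No marker of a somatic cell type passed by edgeR or limma-voom, and DESeq2 called 1, Dcn, a proteoglycan of connective tissue. Of 21 tested Sertoli markers 16 were above 0 (median 0.63), of 17 stromal and peritubular markers 11 (median 0.35, 6 with an unadjusted p under 0.05), of 9 endothelial markers 5 (median 0.30), of 11 Leydig markers 7 (median 0.14) and of 4 macrophage and blood markers 2 (median -0.15). Of 14 tested germ cell identity markers 3 were above 0 (median -0.16), with a summed level of 5475 to 7369 CPM in KO and 6425 to 7448 CPM in WT libraries. The part of these markers in the gene differences was not tested.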

How the data were processed

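RNA from sorted germ cells was extracted with a PicoPure kit and amplified with NuGEN Ovation kits, per the labels. The submitters' processing notes name STAR, Bowtie, featureCounts, edgeR and mm9; no version, role or strand setting is given in the sources used here. Whole-number counts were deposited: one table holds read counts of 24495 genes and of 1217 repeat names, and another holds counts for 53 repeat families, whose totals lie far above those of the read counts and are not on their scale. Amplified reads are not independent molecules, so counting intervals cover counting error only.

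Counts were tested with edgeR 4.0.16 (R 4.3.3): glmQLFit and glmQLFTest on all 9 D2.5 libraries in 1 fit, filterByExpr (minimum count 10, total 15), TMM factors and Benjamini-Hochberg adjustment over all rows tested, with 0.05 as the threshold. Repeat families and names with at least 10 counts in at least 3 libraries were fitted with the gene library sizes and TMM factors; the prior degrees of freedom came out as infinite, so their SE and p rest on a spread shared between rows. SE is the absolute log2 fold change over the square root of F. The biological coefficient of variation was 55.4% for genes. E18.5 libraries were fitted alone; the joint fit of both ages, and edgeR's newer quasi-likelihood method, were added after the data were seen.

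The members, gene lists and repeat groups were chosen with earlier results of these data known. Part of the genes were named by rule: Tex15, up to 10 of the largest changes in each direction that passed without overlap, and list or group members by lowest p or highest level. Other genes, such as paralogues and further list members, were named outside these rules. Alternatives were limma-voom (limma 3.58.1), DESeq2 1.42.0, other scalings and filters, a replicate block and leaving out each library. The scripts were tested on simulated data. Promoters come from RefSeq tables of GRCm38.p6; no coordinates of the deposited files were used.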

Additional observations from a re-analysis of the deposited data

Results flagged for a closer look

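The KO effect at D2.5 (KO over WT) minus that at E18.5 (KO over HT) was tested in a joint edgeR fit of both ages. At an adjusted p under 0.05 it differed from 0 for 3 genes, 15 of the repeat names described here and 2 families. Of the families, 1 (Satellite) had the larger effect at D2.5 and 1, not named here, the lower effect. The effect was larger at D2.5 for Ripk3 (by 3.47), Cdh12 (3.28), Cdr1 (2.65), MER67D (1.60), GSAT_MM (3.93) and the Satellite family (0.78). It was lower at D2.5 among IAP names for IAPLTR4_I (-2.46), IAPEY3-int (-1.40) and IAPEY2_LTR (-1.08), and among ETn and MusD names for ETnERV-int (-1.49) and MMETn-int (-1.32). It was also lower for RLTR10-int (-1.46), RLTR10C (-1.19) and RLTR10 (-1.02). Of the murine leukaemia virus and VL30 type, it was lower for MuRRS-int (-1.92), RLTR4_Mm (-1.89), RLTR6-int (-1.36), MuRRS4-int (-1.25) and RLTR6_Mm (-1.21). All values are on the log2 scale. By limma-voom, 8 genes, 20 repeat names and 2 families of all those tested passed for the same difference. Age, control genotype and library set changed together between the compared effects and cannot be told apart. GSAT_MM and the Satellite family stood on opposite sides of 0 at the 2 ages: 1.18 and 0.28 at D2.5, and -2.73 and -0.47 at E18.5. The D2.5 value of the Satellite family turned to -1.36 when family totals were used as library sizes.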

How the results depend on the processing

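The number of genes that passed in KO over WT (31) was 123 with DESeq2 (88 higher), 110 with no filter, 49 with the newer quasi-likelihood method and 19 to 40 when 1 library was left out, the lowest without WT replicate 3; limma-voom called 32. The 31 were all among the calls of DESeq2, of no filter and of the newer method, and 16 of them passed without any 1 library. Calls shared with E18.5, Tex15 included (15), were 29, 30 and 25 under the same settings and 11 to 22 when 1 library was left out. For HT over WT (1 gene) DESeq2 called 2, no filter 4, and leaving out 1 library 1 to 2 (2 without WT replicate 1). Repeat names (16) were 45 with repeat totals as library sizes, 15 of them shared, and 10 to 20 when 1 library was left out, 10 without WT replicate 1; 9 of the 16 passed without any 1 library. Families (4) were 50 with family totals as library sizes, 2 of them higher, and 3 to 4 when 1 library was left out; there ERV1 was at -0.22, ERVL at -1.55, RNA at -0.87 and Satellite at -1.36, where L1 makes up most of those totals. Replicate numbers did not pair the libraries: same-numbered KO and WT libraries deviated with correlations of -0.059, 0.0013 and -0.0046, and with the replicate block 30 genes, 15 names and 4 families passed in KO over WT and 1 gene in HT over WT. For single genes, names and families, 2493 alternative values kept direction and call, 106 kept the direction but no longer passed, 20 newly passed and 4 reversed. Genes under about 1 CPM in WT rest on few counts, so their fold changes have wide errors.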
